A study of Mus musculus with 15 samples.

Results

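The genes described here code for chemokines and their receptors in mouse T-cells, namely 5 ligands (Ccl22, Ccl3, Ccl4, Ccl5 and Xcl1) and 5 receptors (Ccr8, Ccr4, Cxcr4, Cxcr3 and Ackr3). They are 10 of the 18194 genes on the arrays of CD4+ T-cells and of the 12394 genes on the arrays of thymocytes, and each is read by 1 probe set, the group of probes that measures a transcript. The genes were picked by name with their responses in these arrays already known, so the values below that compare stimulated with unstimulated cells, or the genotypes, are a description and carry no test. Chemokines are small secreted proteins that guide migrating cells, and their receptors sit in the cell membrane and signal through heterotrimeric G proteins. A T cell that is stimulated through its T-cell receptor (TCR) can change both the chemokines it secretes and the receptors it carries, and so alters which cells it attracts and which tissues it can enter.

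All mice were of the 129/SJ background, and the WT animals were littermates of mice in which both copies of N-ras (N-ras KO) or of H-ras (H-ras KO) were disrupted in the whole animal. CD4+ T-cells, the helper T-cells, were sorted by the CD4 surface protein from the spleens of WT or N-ras KO animals aged 6 to 20 weeks, and were kept overnight in growth medium, either alone or with 1 μg/ml of antibodies to CD3 and CD28, which the labels call a low level TCR stimulus. This gives 4 groups of 3 arrays. Thymocytes came untreated from single mice, aged 6 to 20 weeks by the labels and 6 weeks by the methods, 1 WT animal and 1 each of the N-ras KO and the H-ras KO line, with 1 array per mouse. The CD4+ T-cells are read here for which genes respond to a weak TCR signal, and whether that response is the same without N-ras. The study mainly compared stimulated WT with stimulated N-ras KO cells and left out genes that differed between stimulated and unstimulated cells.

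The values are log2 expression from which the authors had already subtracted, on every probe set, the median of the unstimulated arrays of the same genotype, or in thymocytes the median of the 3 arrays. They therefore hold differences and no level, and neither the T-cell identity of the samples nor the abundance of a chemokine could be read from them. Nras itself went against the label on 1 replicate number of each genotype. On its 3 probe sets the arrays labelled N-ras KO read -0.65 to 0.51 log2 in replicates 1 and 2 and 0.80 to 2.09 log2 in replicate 3, whereas the arrays labelled WT read -0.19 to 0.65 log2 in replicates 2 and 3 and -3.04 to -0.14 log2 in replicate 1. The groups are therefore named as the labels name them, and means are also given without these replicates. The arrays of N-ras KO replicate 3 also had the widest spread over all probe sets, with SDs of 0.841 log2 unstimulated and 1.00 log2 stimulated, against 0.413 to 0.733 log2 in the other 10 arrays. In thymocytes Nras was 1.81 to 2.46 log2 lower in the N-ras KO array than in the WT array.

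Ccl22 and Ccr8 had the largest mean responses to stimulation in the arrays labelled WT among the 10 genes. Ccl22 is a ligand of Ccr4, secreted by dendritic cells, macrophages and activated T-cells, and Ccr8 is a receptor of Th2 and regulatory T-cells. Their promoters, taken from RefSeq (build GRCm38.p6), are shown beside that of Cxcr4, a receptor with almost no response, to set the largest responses against a minimal one. Each sequence is the 250 bases before the gene's start, 5′ to 3′ on the gene's strand, with matches in capitals to a kappaB motif (GGGA and CC with any 4 bases between them), an AP-1 motif (TGANTCA), a cAMP response motif (TGACGTCA) or an NFAT motif (TGGAAAA), each searched on both strands.
Ccl22 (chr8:94745434-94745683, plus strand): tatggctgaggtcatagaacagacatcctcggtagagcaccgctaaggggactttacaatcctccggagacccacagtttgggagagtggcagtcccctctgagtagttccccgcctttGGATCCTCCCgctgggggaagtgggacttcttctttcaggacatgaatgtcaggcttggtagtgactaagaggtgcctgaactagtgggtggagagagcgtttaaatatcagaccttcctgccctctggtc
Ccr8 (chr9:120091883-120092132, plus strand): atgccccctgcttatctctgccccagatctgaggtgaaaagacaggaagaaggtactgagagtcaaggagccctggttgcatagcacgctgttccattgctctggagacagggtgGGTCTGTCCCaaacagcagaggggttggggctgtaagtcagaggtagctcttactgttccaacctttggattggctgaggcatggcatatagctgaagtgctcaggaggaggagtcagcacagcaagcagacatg
Cxcr4 (chr1:128592300-128592549, minus strand): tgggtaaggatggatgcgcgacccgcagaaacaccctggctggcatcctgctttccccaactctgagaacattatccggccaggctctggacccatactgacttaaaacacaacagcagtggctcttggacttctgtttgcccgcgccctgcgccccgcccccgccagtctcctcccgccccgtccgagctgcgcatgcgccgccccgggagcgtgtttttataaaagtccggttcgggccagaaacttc
Both capital stretches are matches to the kappaB motif on the strand opposite to the gene, 131 to 122 bases before the start of Ccl22 and 135 to 126 bases before that of Ccr8. The table held promoters for 8 of the 10 genes. Ccl22 and Ccr8 were the 2 with a kappaB match, against 17.6% of the 32851 promoter windows of this length that were searched. None was found for Ackr3 and Xcl1, whose mean WT responses were 2.13 and 1.26 log2, nor for Ccl3, Ccr4, Cxcr4 and Cxcr3. A relation between a match and the response was not tested. Ccr4 was the 1 with an AP-1 match (143 to 137 bases before its start, against 6.75%). The search left out windows on 1 chromosome, which holds none of these 8 genes. None of the 8 held the cAMP response motif (1.55% of the windows searched) or the NFAT motif (5.93%). A match describes letters in this window and is not a binding site. The letters TATAAA lay 30 to 25 bases before the start of Cxcr4 and 8 to 3 bases before that of Ackr3. These were the 2 of the 8 genes with this match, against 12.4% of the windows searched, on either strand.

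In the arrays labelled WT, the unstimulated replicates 1, 2 and 3 read 0.00, -0.33 and 2.20 log2 for Ccl22, and the stimulated ones 3.06, 3.24 and 5.41 log2. Every stimulated array lay above every unstimulated one, although replicate 3 was already high before stimulation. Each stimulated array was then set against the unstimulated array of the same number, a difference called the response here, since stimulated and unstimulated cells of a number were split from the same sorted cells according to one passage of the study's methods, while another gives each condition its own mouse. The responses were 3.06, 3.57 and 3.22 log2, a mean of 3.28 ± 0.26 log2 (SD, n = 3), or 9.73-fold. In the arrays labelled N-ras KO, Ccl22 was at 0.18, 0.00 and -0.19 log2 before and at -0.40, 2.54 and 4.0 log2 after stimulation. The first of these pairs thus showed no increase, while the third had the largest Ccl22 response of all 6 pairs. The mean was 2.06 ± 2.42 log2, and 0.99 log2 without replicate 3.

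**Figure D1:**
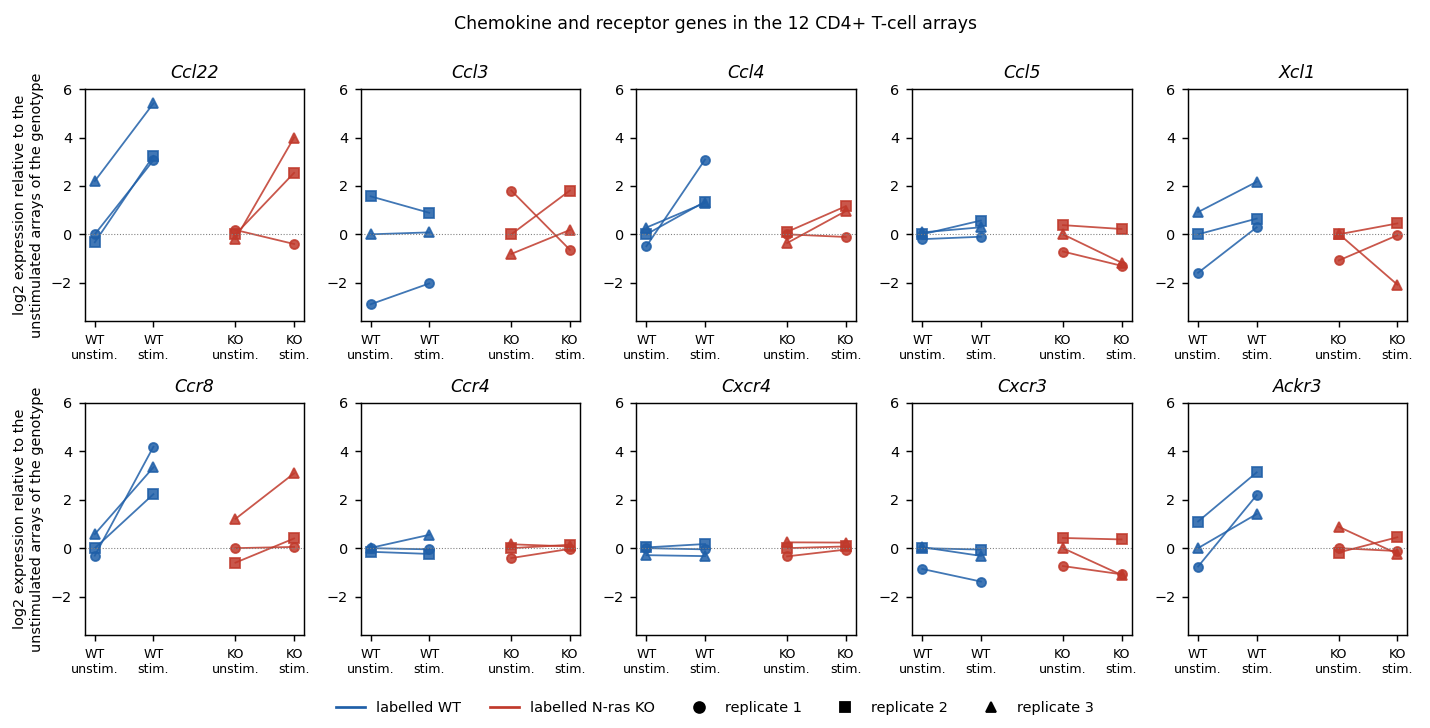
Log2 expression of each of the 10 genes in the 12 CD4+ T-cell arrays, relative to the unstimulated arrays of the same genotype (vertical axis), in the 4 groups (horizontal axis). Each point is 1 array, lines join the unstimulated and stimulated array of a replicate number, and blue and red give the genotype on the label. The 3 blue lines of Ccl22 climb in parallel to 3.06, 3.24 and 5.41, while the red line of replicate 1 ends at -0.40.

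Among the other ligands, Ccl4, which attracts monocytes and T-cells, read -0.49, 0.00 and 0.28 log2 in the unstimulated and 3.09, 1.35 and 1.30 log2 in the stimulated WT replicates. These groups did not overlap, and replicate 1 stood out with a response of 3.57 log2 against 1.35 and 1.02 log2. The mean of 1.98 ± 1.39 log2 became 1.18 log2 without that replicate. The N-ras KO responses of Ccl4 were -0.11, 1.05 and 1.33 log2, a mean of 0.76 ± 0.76 log2, and 0.47 log2 without replicate 3. Those of WT and N-ras KO overlapped.

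Xcl1, a chemokine of activated T and NK cells that attracts dendritic cells bearing its receptor Xcr1, was higher after stimulation in all 3 WT pairs, by 1.88, 0.65 and 1.25 log2, although the unstimulated arrays ranged from -1.59 to 0.92 log2 and overlapped with the stimulated ones. Its mean WT response was 1.26 ± 0.61 log2, or 2.40-fold. The first and second N-ras KO pairs were higher too, by 1.05 and 0.45 log2, but the third was at -2.11 log2. The mean over these 3 pairs was -0.20 ± 1.68 log2, and without replicate 3 it was 0.75 log2, near the 0.95 log2 of the WT pairs without replicate 1.

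Ccl3, the close relative of Ccl4, had no common direction. Its responses were 0.86, -0.68 and 0.08 log2 in WT and -2.45, 1.81 and 0.99 log2 in N-ras KO, with means of 0.09 ± 0.77 and 0.12 ± 2.26 log2. Its unstimulated arrays alone covered -2.89 to 1.57 log2 in WT and -0.81 to 1.81 log2 in N-ras KO, a wider span than for any other of the 10 genes. Ccl5, which recruits T-cells, monocytes and eosinophils, had small responses that pointed apart by genotype. They were 0.09, 0.57 and 0.21 log2 in WT (mean 0.29 ± 0.25 log2) and -0.59, -0.16 and -1.17 log2 in N-ras KO (mean -0.64 ± 0.51 log2). The stimulated and unstimulated arrays overlapped in both genotypes.

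Of the receptors, Ccr8 read -0.31, 0.00 and 0.58 log2 in the unstimulated and 4.19, 2.23 and 3.34 log2 in the stimulated WT replicates, and these did not overlap. Its responses of 4.50, 2.23 and 2.75 log2 gave a mean of 3.16 ± 1.19 log2, or 8.95-fold, and 2.49 log2 without replicate 1. In N-ras KO it was at 0.00, -0.60 and 1.21 log2 before and at 0.05, 0.40 and 3.09 log2 after stimulation. Replicate 3 was thus high in both conditions, and the responses of 0.05, 1.00 and 1.88 log2 averaged 0.97 ± 0.91 log2, or 0.52 log2 without that replicate. Ccr8 was the 1 gene of the 10 that was higher after stimulation in all 6 pairs, against 2.42% of all 45101 probe sets.

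Ackr3 is an atypical receptor that binds and removes Cxcl12 and Cxcl11 without G protein signaling. It read -0.76, 1.10 and 0.00 log2 in unstimulated and 2.19, 3.13 and 1.41 log2 in stimulated WT replicates, again without overlap. Its WT responses were 2.95, 2.02 and 1.41 log2, a mean of 2.13 ± 0.77 log2, or 4.36-fold. The N-ras KO responses of -0.12, 0.62 and -1.12 log2 lay on both sides of 0, with a mean of -0.21 ± 0.87 log2. Without the doubted replicates these means were 1.72 log2 in WT against 0.25 log2 in N-ras KO. The probe set of Ackr3 is of a type (_s_at) that can read more than 1 transcript.

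The remaining 3 receptors had small responses. Cxcr4, the receptor that holds lymphocytes in the bone marrow and lymphoid tissue, had responses between -0.05 and 0.14 log2 in WT and between -0.01 and 0.27 log2 in N-ras KO. Ccr4, the receptor of Ccl22, had responses between -0.09 and 0.54 log2 in WT and between -0.09 and 0.38 log2 in N-ras KO, with means of 0.13 ± 0.35 and 0.15 ± 0.23 log2. Cxcr3, which guides Th1 cells toward interferon-induced chemokines, was lower after stimulation in all 6 pairs, with responses of -0.52, -0.06 and -0.36 log2 in WT and -0.34, -0.07 and -1.11 log2 in N-ras KO. Those directions were shared by 13.5% of all probe sets in WT and 12.9% in N-ras KO. The means of Cxcr3 were -0.31 ± 0.24 and -0.50 ± 0.54 log2, and its stimulated and unstimulated arrays overlapped in both genotypes.

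**Figure D2:**
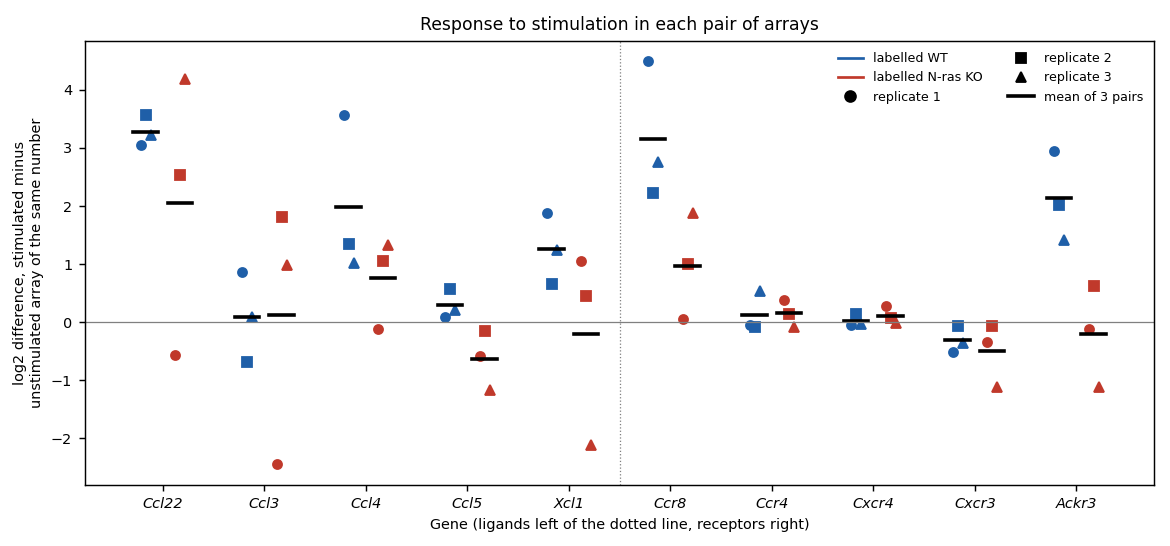
Response of each gene to stimulation (vertical axis, log2 difference between the stimulated and the unstimulated array of the same number) for the ligands and receptors (horizontal axis). Points are single pairs, coloured by the genotype on the label, and black bars are means of 3 pairs. The WT pairs of Ccl22 sit between 3.06 and 3.57, while its N-ras KO pairs spread from -0.57 to 4.19.

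Counted together, 4 of the 10 genes (Ccl22, Ccl4, Ccr8 and Ackr3) had 3 stimulated WT arrays all above the 3 unstimulated ones, against 2.27% of all probe sets, and none did in N-ras KO, against 2.72%. Mean responses of at least 1.5-fold upward were found for 5 genes in WT (4.21% of all probe sets) and 3 in N-ras KO (6.45%). Ccl5 was lower by at least 1.5-fold in N-ras KO (7.20%). Without N-ras KO replicate 3 the means of Ccl5 (-0.38 log2), Ccl4 (0.47 log2) and Ccr8 (0.52 log2) fell short of 1.5-fold. That of Ccl22 (0.99 log2) did not, nor did those of the 5 WT genes without WT replicate 1. In 6 genes all 3 WT pairs were higher (14.5% of all probe sets), and in N-ras KO this was so for Ccr8 (13.8%). The median response of the 10 genes was 0.77 log2 in WT and for N-ras KO 0.11 log2, and that of all probe sets was 0.00 and 0.01 log2. As these genes were chosen with the responses known, the counts describe them and nothing more is read from the comparison.

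The responses of WT and N-ras KO did not overlap for 3 of the 10 genes, Ccr8, Ackr3 and Ccl5, and WT was above N-ras KO in each, against 5.41% of all probe sets, and below it in none (4.98%). The differences between the mean responses, WT minus N-ras KO, were 2.19 log2 for Ccr8, 2.33 log2 for Ackr3 and 0.93 log2 for Ccl5. Without WT replicate 1 and N-ras KO replicate 3 they were 1.97, 1.47 and 0.76 log2. The corresponding difference was 1.23 log2 for Ccl22, 2.41 log2 without these replicates and -0.09 log2 without N-ras KO replicate 1. For Ccl4 it was 1.22 log2 and 0.71 log2, and for Xcl1 it dropped from 1.46 to 0.20 log2. Ccl3, Ccr4, Cxcr4 and Cxcr3 differed by -0.09 to 0.19 log2. The median difference over the 10 genes was 1.08 log2, 0.46 log2 without both replicates and 0.53 log2 without N-ras KO replicate 1.

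The N-ras KO pairs were also unequal in a list of 14 genes of T-cell activation, whose median responses were 0.26, 0.67 and 1.35 log2 in replicates 1, 2 and 3, against 1.15, 0.93 and 1.48 log2 in WT. The N-ras KO pair with the lowest activation median was also the lowest of the 3 for Ccl22, Ccl3, Ccl4 and Ccr8, and the pair with the highest was also the highest for Ccl22, Ccl4 and Ccr8. For Ccl5, Xcl1, Ackr3, Ccr4, Cxcr4 and Cxcr3 that pair was instead the lowest. The largest responses in the list were those of the transcription factor genes Egr2 (2.55 log2 for WT, 5.40 log2 for N-ras KO), Nr4a1 (2.22 and 3.62 log2) and Egr3 (2.09 and 3.07 log2). For Egr3 this was on 1 of 2 probe sets, with overlapping N-ras KO groups and pairs at 0.31, 4.91 and 4.01 log2. Its other probe set was at 0.16 log2 for WT and 0.09 log2 for N-ras KO. The part of the strength of activation in the chemokine values was not tested.

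Several of these chemokines are also made by dendritic cells, macrophages, B cells, NK cells or CD8+ T-cells, so markers of those cells were read in the same pairs. The 17 probe sets for macrophages and dendritic cells had median responses of 0.02, 0.17 and 0.11 log2 in the WT pairs and 0.13, -0.09 and -0.13 log2 in the N-ras KO pairs, and the mean of these probe sets ranged from -0.20 to 0.18 log2 in unstimulated and from 0.10 to 0.62 log2 in stimulated WT arrays. In N-ras KO it ranged from -0.05 to 0.43 log2 and from -0.02 to 0.49 log2. Of this list Csf1r, the receptor for the growth factor of macrophages, was at 1.46 log2 for WT, mostly from replicate 3 (0.40, 0.35 and 3.63 log2), and at -0.45 log2 for N-ras KO on 1 of 3 probe sets, Mpeg1 at 1.22 and 1.16 log2, and C1qb at 0.17 and 1.15 log2 on 1 of 3. The 16 probe sets for B cells had median responses of 0.15, 0.30 and 0.35 log2 in WT and 0.27, 0.14 and 0.33 log2 in N-ras KO, and array means of -0.41 to 0.32 log2 in unstimulated and 0.01 to 0.94 log2 in stimulated WT arrays, against -0.19 to 1.20 and 0.12 to 1.42 log2 in N-ras KO. Among them was Fcer2a, a receptor for immunoglobulin E, at 2.39, 3.00 and 3.28 log2 in the WT pairs and 0.61, 1.95 and 1.89 log2 in the N-ras KO pairs on 1 of 2 probe sets. The values hold no level, so that the abundance of these markers is unknown, and their part in the chemokine responses was not tested. The 15 probe sets for CD8+ T and NK cells had a median of 0.11 log2 for WT and 0.06 log2 for N-ras KO, with N-ras KO pairs at -0.55, 0.13 and 0.10 log2. In this list Eomes, a transcription factor of cytotoxic lymphocytes, was at 1.08 log2 for WT and 2.07 log2 for N-ras KO on 1 probe set and at 1.70 and 0.73 log2 on the other. Klrd1, an NK cell receptor, was at -1.43 and -0.61 log2, and Cd8a at 0.16 and -1.12 log2 on 1 of 5 probe sets. Their part in the responses of Xcl1, Ccl3, Ccl4 and Ccl5, which these cells also make, was not tested. Medians for T-cells were -0.01 and -0.04 log2 and for platelets 0.07 and -0.03 log2, while neutrophil granule genes were at -0.12 log2 for WT and 0.92 log2 for N-ras KO (pairs at 1.60, 0.70 and -0.22 log2). In bulk RNA of this kind a change in the number of cells of a type and a change of RNA per cell cannot be told apart.

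The rest of the chemokine system was read from whole families, 30 other ligands, 17 other receptors and 37 genes that act downstream of the receptors, on 175 probe sets. None of the 175 passed an adjusted p of 0.05 (limma, Benjamini-Hochberg over all 45101 probe sets) for the response in WT, the response in N-ras KO or the difference of the responses, nor did any of all 45101 probe sets (0%). At an unadjusted p of 0.05, 5 were higher and none lower in WT, where 1.15% of all probe sets passed, and 3 were higher and 3 lower in N-ras KO, where 2.58% did. For the difference, 1 was higher and 2 were lower in WT (1.30% of all probe sets). With the replicate number within each genotype as a block, the unadjusted counts were 12 of 175 in WT (4.30% of all probe sets) and 14 of 175 in N-ras KO (7.10%), with 8 of 175 for the difference (4.58%), and again none passed the adjusted threshold. The medians of the other ligands were 0.21 log2 for WT and 0.14 log2 for N-ras KO, those of the other receptors 0.04 and -0.05 log2, and those of the downstream genes were 0.00 log2 in both.

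The other ligands past the unadjusted threshold in WT without overlap were Cxcl16, the ligand of Cxcr6, at 1.19 log2 (standard error 0.52, adjusted p = 1.00 from limma), and the neutrophil attractants Cxcl1 at 0.78 log2 (standard error 0.35) and Cxcl2 at 0.72 log2 (standard error 0.29). The second probe set of Cxcl16 was at 0.67 log2, and those of Cxcl1 at 0.30 and 0.07 log2. In N-ras KO, Cxcl12, the ligand of Cxcr4 and Ackr3, was at 1.37 log2 (standard error 0.43), with pairs at 0.38, 2.49 and 1.24 log2, but on 1 of 3 probe sets, the other two being at 0.13 and 0.05 log2. On that probe set the WT pairs were at -0.25, 0.13 and -0.87 log2, and the responses differed by -1.70 log2 (standard error 0.61, adjusted p = 1.00). Ccr1, a receptor of Ccl3 and Ccl5, was at 0.86 log2 in N-ras KO (standard error 0.20) with pairs at 0.90, 0.74 and 0.95 log2, while its second probe set was at -0.11 log2.

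Among the downstream genes, Tiam1, an exchange factor that activates Rac, was at 1.12 log2 in WT (standard error 0.36) and at -0.02 log2 for N-ras KO on 1 of 3 probe sets, a difference of 1.14 log2 (standard error 0.51, adjusted p = 1.00 from limma). Cdc42, a GTPase of cell polarity, was at 1.06 log2 in WT (standard error 0.39) on 1 of 4 probe sets, the others lying between -0.06 and 0.11 log2. Its pairs on that probe set were at 2.07, 0.78 and 0.33 log2, with a mean of 0.56 log2 without WT replicate 1. Grk3, a kinase that switches off stimulated receptors, was at 0.95 log2 in N-ras KO (standard error 0.25) and 0.13 log2 in WT on 1 of 3 probe sets, and Ptk2b, a tyrosine kinase of cell adhesion, at -0.77 log2 in N-ras KO on 1 of 2. In each of these 4 genes the remaining probe sets did not pass the unadjusted threshold. Those of Tiam1 were at 0.10 and 0.17 log2 in WT. In N-ras KO the sign was opposite to the named probe set for Grk3 (-0.46 and -0.88 log2) and for Ptk2b (0.25 log2).

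The partners of the 10 genes, named here for that role and with their values in view, were Ccl17 for Ccr4, Ccl1 for Ccr8, Cxcl9, Cxcl10 and Cxcl11 for Cxcr3, and Xcr1 for Xcl1. Cxcl10 had WT responses of 0.18, 1.11 and 3.13 log2 and N-ras KO responses of 2.39, 0.68 and 1.08 log2, higher in all 6 pairs, with means of 1.47 and 1.38 log2 that did not pass the unadjusted threshold. Ccl1 was high in the third pair of each genotype, at 1.60 and 0.91 log2, and between -0.20 and 0.19 log2 in the other 4 pairs. Ccl17 had means of 0.31 and 0.16 log2 and Xcr1 of 0.17 and -0.05 log2. Cxcl9 lay between 0.04 and 0.26 log2 on its 2 probe sets in both genotypes. The 2 probe sets of Cxcl11 disagreed, at 0.58 and 0.27 log2 in WT and -0.32 and 0.58 log2 in N-ras KO.

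**Figure D3:**
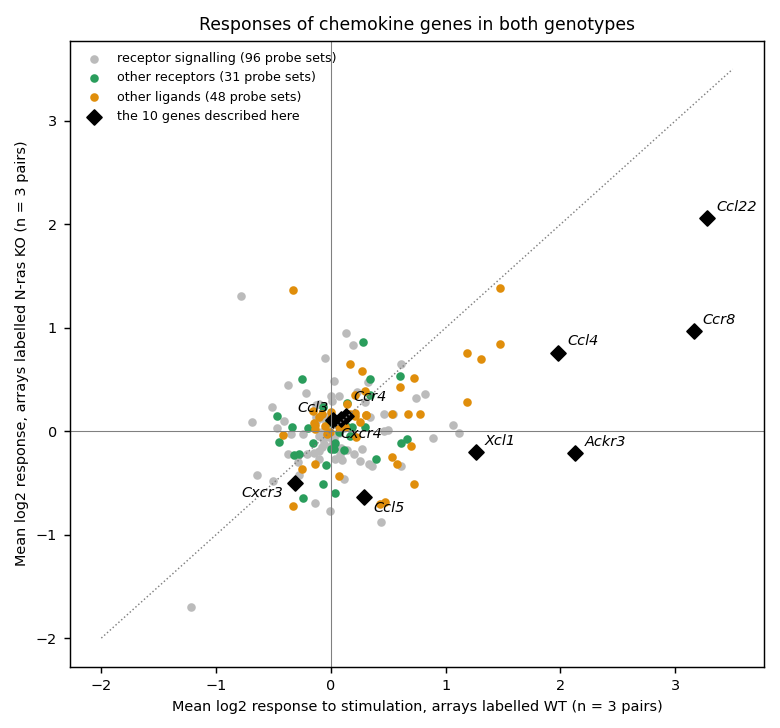
Mean response to stimulation in arrays labelled WT (horizontal axis, log2) and N-ras KO (vertical axis, log2) for the 10 genes (black diamonds, named) and for probe sets of other ligands (orange), other receptors (green) and downstream genes (grey), with n = 3 pairs per axis and a dotted line of equal response. Ccl22 lies at 3.28 and 2.06 and Ccr8 at 3.16 and 0.97, whereas Ackr3, at 2.13 and -0.21, lies far below the dotted line.

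In thymocytes, where each genotype has 1 array and no difference has a replicate check, the WT array was the highest of the 3 for 7 of the 10 genes, against 21.3% of all 22690 probe sets. Ccr8 differed most, reading 0.67 log2 in the WT, -0.49 log2 in the N-ras KO and 0.00 log2 in the H-ras KO array. The WT array thus exceeded the N-ras KO array 2.25-fold and the H-ras KO array 1.60-fold. Ccl22 read 0.47, -0.13 and 0.00 log2 in the same order, so that WT was 1.52-fold and 1.39-fold higher. WT was above the N-ras KO array for 7 of the 10 genes (35.7% of all probe sets) and above the H-ras KO array for 9 (31.9%).

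Ccl22 and Ccr8 were thus the 2 of the 10 genes by which WT exceeded N-ras KO at least 1.5-fold (1.09% of all probe sets), and Ccr8 the 1 against H-ras KO (1.51%), while none was lower by that much in either comparison (1.55% and 1.47%). Just under the threshold lay Ccl3, which was at 0.55 log2 in WT and 0.00 log2 in both KO arrays, and Ccr4, which differed by 0.52 log2 between WT and H-ras KO and by 0.15 log2 between WT and N-ras KO. Ccl4 (0.31 and 0.32 log2), Cxcr4 (0.24 and 0.31 log2) and Ackr3 (0.25 and 0.30 log2) were slightly higher in WT than in either KO array, with the N-ras KO comparison given first. Ccl5 and Xcl1 were at -0.10 and 0.00 log2 against N-ras KO and both at 0.30 log2 against H-ras KO. Cxcr3 was at -0.22 and -0.03 log2. Both comparisons use the same WT array, so that their common sign is not independent.

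**Figure D4:**
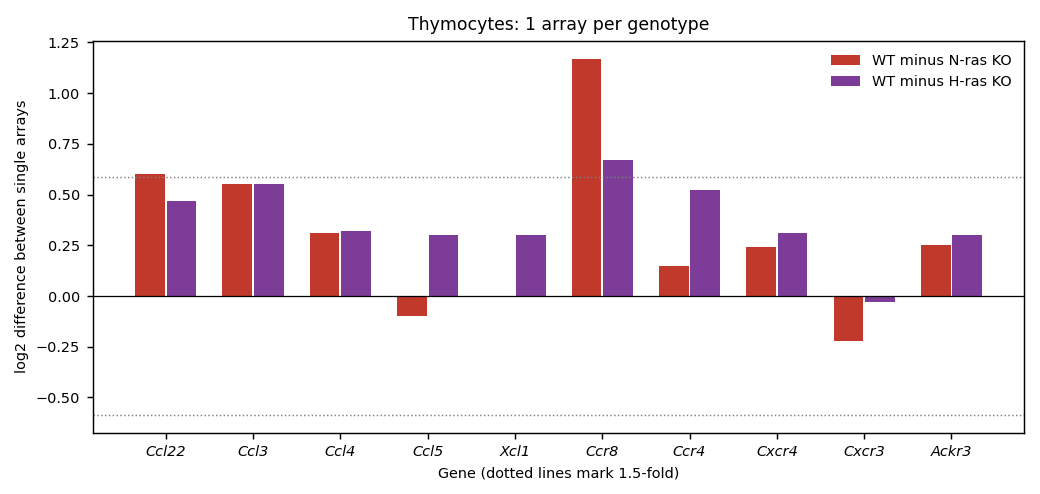
Log2 difference between the WT thymocyte array and the N-ras KO (red) or H-ras KO (purple) array (vertical axis) for the 10 genes (horizontal axis), each from 1 array per genotype, so that no error is shown. The dotted lines mark 1.5-fold, which Ccr8 passes at 1.17 and 0.67 and Ccl22 at 0.60 against N-ras KO.

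Of 133 probe sets of the other chemokine genes in thymocytes, 8 exceeded the N-ras KO array at least 1.5-fold in WT and none was lower, where 1.09% and 1.55% of all probe sets did so. Against H-ras KO 7 were higher and 5 lower (1.51% and 1.47% of all probe sets). The regulators of G protein signaling Rgs1 and Rgs2 were among the largest, with Rgs1 in WT at 3.84-fold the value of N-ras KO and 2.23-fold that of H-ras KO. Rgs2 was 3.17-fold and 2.30-fold higher on 1 probe set and 2.54-fold and 1.9-fold higher on the other. Gnb1, a beta subunit of heterotrimeric G proteins, was 6.02-fold and 5.64-fold higher on 1 probe set, while on the other 2 it was 4.34-fold and 1.08-fold, and 1.46-fold and 1.21-fold higher.

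Among the other ligands, Cxcl2 in WT was at 2.15-fold the value of N-ras KO and 1.59-fold that of H-ras KO. Ccl6, a chemokine of myeloid cells, was 1.65-fold higher than in N-ras KO on 1 of its probe sets, and lower than in H-ras KO, by -0.60 log2 on that probe set and -0.82 log2 on another. Ccl25, which draws thymocyte precursors through the receptor Ccr9, was 1.52-fold higher in WT against N-ras KO, with the H-ras KO array 1.47-fold above WT. In the H-ras KO array Ccl8 was 1.71-fold and Ccl27a 2.24-fold above WT. The receptor Ccr7, which guides mature thymocytes, was in WT at 2.08-fold the value of H-ras KO and 1.13-fold that of N-ras KO, and Ccr9 at 1.55-fold and 1.26-fold on 1 of 3 probe sets. Arrb1, an arrestin that uncouples receptors, was lower in WT, at -1.07 log2 against H-ras KO and -0.58 log2 against N-ras KO.

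Of the marker lists, neutrophil granule genes were also high in the WT thymocyte array, with 8 of 9 probe sets at least 1.5-fold above each KO array and medians of 1.45 log2 (N-ras KO) and 1.91 log2 (H-ras KO). Macrophage and dendritic cell markers were at medians of 0.12 and 0.07 log2 with none at 1.5-fold. B cell markers were at 0.00 and 0.14 log2, with 1 of 13 probe sets at least 1.5-fold lower in WT against N-ras KO and 3 higher against H-ras KO. CD8+ T and NK markers were at 0.00 and 0.07 log2, with 1 of 12 higher against H-ras KO, T-cell markers at 0.00 and 0.01 log2, and platelet markers at 0.00 log2 in both, with none of these last 2 lists at 1.5-fold. The list of activation genes was at 0.00 and 0.21 log2, with 1 of 20 probe sets at least 1.5-fold higher against N-ras KO and 4 against H-ras KO. The part of these cells in the differences of Cxcl2, Ccl3 and Ccl22 was not tested.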

How the data were processed

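The data are 12 Affymetrix arrays of CD4+ T-cells with 45101 probe sets and 3 arrays of thymocytes with 22690. The authors deposited log2 values made with RMA (RMA-16 in GeneSpring GX11), quantile normalization and a subtraction of the median of the controls. That median is 0 (tolerance 1e-06) on all 45101 probe sets in the unstimulated arrays of each genotype and on all 22690 in the 3 thymocyte arrays. Brightness is thus lost, and no filter on dim probe sets could be used. The precision is limited by the number of arrays. The methods give the same array type for both experiments, although their probe sets differ, and state an age of 6 weeks for the thymocytes, where the labels give 6 to 20.

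Gene names came from the platform annotation of GEO, updated by gene ID to RefSeq symbols. For CD4+ T-cells 34958 probe sets have 1 gene, 932 several and 9211 none, and for thymocytes 20393, 691 and 1606. Only probe sets of 1 gene were named. The 10 genes and all lists (other ligands, other receptors, receptor signalling, activation, and markers of T-cells, neutrophils, macrophages and dendritic cells, B cells, CD8+ T and NK cells and platelets) were chosen with earlier results of these data known. The genes named outside the 10 were, per list and contrast, up to 4 with the largest response at an unadjusted p of 0.05 and groups that do not overlap, up to 4 per direction at 1.5-fold in thymocytes, and up to 3 of each marker list.

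Tests used limma (version 3.58.1, R version 4.3.3; two-sided, moderated by eBayes) with 4 groups of 3 arrays, a threshold of 0.05 and no block, after the study's unpaired test. The fit was tested on simulated data. The p-values set a difference of group means against the spread between the arrays within groups. Without a block they leave out the pairing by replicate number. Same-numbered stimulated and unstimulated arrays deviated together, with correlations of 0.458, 0.447 and 0.738 in WT and 0.361, 0.394 and 0.626 in N-ras KO, and the study's methods state that sorted cells were split between conditions. Numbers of different genotypes did not pair (-0.234, -0.266 and -0.621 unstimulated, and -0.117, -0.211 and -0.526 stimulated). Alternatives were a block, another normalization, array weights, fewer arrays or probe sets, a fit of 2 groups and the methods' t-test. Promoters came from a RefSeq table (GRCm38.p6).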

Additional observations from a re-analysis of the deposited data

Results flagged for a closer look

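Ccl5 was flagged because all 3 pairs labelled WT were higher after stimulation and all 3 pairs labelled N-ras KO were lower, with a difference of the mean responses of 0.93 log2. This difference was not tested, since Ccl5 was among the genes chosen with the responses known. Of all probe sets, 14.5% were higher in all 3 WT pairs and 12.9% were lower in all 3 N-ras KO pairs. The share with both was not counted.

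The reverse was found for 1 probe set each of Gna13 and Rgs19, a G protein subunit and a regulator of G protein signaling, which were lower after stimulation in all 3 WT pairs and higher in all 3 N-ras KO pairs, with differences of -0.09 and -0.23 log2. In both the opposite directions were not tested as such, and the interaction term passed no adjusted threshold in limma (adjusted p = 1.00). Taken singly, these directions were shared by 13.5% of all probe sets in WT and 13.8% in N-ras KO. The share with both was again not counted. Groups of 3 arrays were not searched for outliers.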

How the results depend on the processing

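Quantile normalization moved the WT response of Ccl22 from 3.28 to 3.65 log2 and its N-ras KO response from 2.06 to 1.72 log2. With it the N-ras KO mean changed sign for Xcl1 (from -0.20 to 0.24 log2) and Ccl3 (from 0.12 to -0.10 log2). Leaving out 1 replicate moved the N-ras KO responses most, to between 0.99 and 3.37 log2 for Ccl22, between -0.73 and 1.40 log2 for Ccl3 and between -0.83 and 0.75 log2 for Xcl1. The difference of the responses then lay between -0.09 and 2.30 log2 for Ccl22, 0.43 and 1.70 log2 for Ccl4, 1.52 and 2.65 log2 for Ccr8, and 1.88 and 2.75 log2 for Ackr3. The median response of the 10 genes in WT was 0.77 log2 and 0.29 log2 without _x_at and _s_at probe sets, which leaves out Ackr3. The median difference of the responses was 1.08 log2, and 0.46 log2 without both N-ras KO replicate 3 and WT replicate 1. Omitting 1 replicate number gave 0.67 to 1.02 log2 for the WT response, -0.20 to 0.26 log2 for the N-ras KO response and 0.53 to 1.27 log2 for the difference. In thymocytes, 1 of the 10 genes in place of 2 passed against N-ras KO with quantile normalization or a 2-fold threshold. Against H-ras KO 0 of the 10 passed 2-fold in place of 1, and 6 in place of 12 of the other probe sets. The causes were not tested.

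None of the 175 other probe sets passed the adjusted threshold in any contrast under any alternative. Unadjusted counts for the WT response, the N-ras KO response and the difference were 5, 6 and 3. With the replicate block within genotype they were 12, 14 and 8, and with a replicate block by number 5, 9 and 1. They were 2, 3 and 1 after quantile normalization, 14, 6 and 9 with array quality weights, and 8, 4 and 1 without both doubted replicates. Leaving out 1 replicate gave 2 to 7, 4 to 6 and 2 to 3. The methods' t-test gave 3 and 7. It and the fit of 2 groups (7 and 5) were not run for the difference, and a trend on brightness was not run because the values hold none. The block within genotype changed no call at the adjusted threshold, though it raised the unadjusted counts as given above.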
